A study of Mus musculus with 6 samples.

Results

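The integrated stress response and the amino acid genes driven by the transcription factor ATF4 were followed across 3 groups of mouse BFU-E (burst-forming units, erythroid), early committed progenitors of red blood cells. The set holds 35 named genes of 37620 in the deposited tables. It covers stress transcription factors, the kinases and phosphatase subunits that act on the translation factor eIF2α, and enzymes of serine, asparagine, one-carbon, proline, transaminase and cysteine metabolism. All 35 were found by gene symbol, 33 passed the filter on low counts, and the other 2, Bcat1 and Fgf21, are given by their counts. The cells came from E14.5 fetal livers of 129/SvImJ mice, freed of cells bearing lineage markers, Sca-1, CD16/32, CD41 or CD34, and sorted for c-kit and for the lowest 10% of CD71. One group had 100 nM dexamethasone, a synthetic glucocorticoid (Dex), together with 10 µM GW7647, an agonist of the nuclear receptor PPARα. Another had 100 nM Dex alone, and the untreated group had neither drug. Each group had 2 libraries, and the medium with stem cell factor, insulin-like growth factor 1 and erythropoietin is stated for all of them. The labels give 12 h of treatment for the 2 drug groups, while the headers of one deposited table carry 36 h. No time in culture is given for the untreated group, so a difference in time cannot be told apart from the drugs there. There was no group with GW7647 alone. Nothing states whether the 2 libraries of a group came from separate litters or cultures, so p-values measure only the spread between these libraries.

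When eIF2α is phosphorylated, general translation slows while the mRNA of ATF4 is translated more, so much of the control of ATF4 lies above the level of its mRNA. Of the eIF2α kinases, HRI (Eif2ak1) responds to lack of heme and is prominent in red cell precursors, PERK (Eif2ak3) responds to endoplasmic reticulum stress, and GCN2 (Eif2ak4) to uncharged tRNA. ATF4 dimerises with C/EBP proteins on composite elements and drives genes for amino acid synthesis and import, while CHOP (Ddit3) and TRIB3 are among its later outputs.

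The fixed letters of the C/EBP-ATF element searched here were TGATGNAA, on both strands, in the promoter windows that RefSeq gives for GRCm38.p6, from 250 bases before to 50 bases after each start. Of the 35 genes, 31 had a window, and Ppp1r15b, Eif4ebp1, Aldh1l2 and Cth had none. The letters were found for 9 of the 31 genes (29.0%), namely Atf3, Nupr1, Trib3, Chac1, Vldlr, Fgf21, Asns, Pycr1 and Got1, and for 1219 of all 27025 genes with a window (4.51%). In Trib3 the match lay from base 15 to base 22 after the start, and in the others it lay before the start. The 250 bases before the start are shown for 5 genes that span the responses described here, 5′ to 3′ on the strand of the gene, with the matched letters in capitals. For Atf3, Nupr1 and Chac1 the match is on the opposite strand, so the capitals read as the reverse complement of the letters searched.
Atf3: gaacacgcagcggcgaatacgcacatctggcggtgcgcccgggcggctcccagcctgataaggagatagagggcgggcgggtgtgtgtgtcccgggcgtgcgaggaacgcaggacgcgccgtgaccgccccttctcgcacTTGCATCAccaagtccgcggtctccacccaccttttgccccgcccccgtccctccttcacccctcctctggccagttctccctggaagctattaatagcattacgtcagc
Nupr1: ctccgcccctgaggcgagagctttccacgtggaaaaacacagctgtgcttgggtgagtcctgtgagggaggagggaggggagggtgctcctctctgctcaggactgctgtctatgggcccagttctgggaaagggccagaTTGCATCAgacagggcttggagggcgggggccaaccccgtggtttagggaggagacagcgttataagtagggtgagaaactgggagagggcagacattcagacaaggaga
Chac1: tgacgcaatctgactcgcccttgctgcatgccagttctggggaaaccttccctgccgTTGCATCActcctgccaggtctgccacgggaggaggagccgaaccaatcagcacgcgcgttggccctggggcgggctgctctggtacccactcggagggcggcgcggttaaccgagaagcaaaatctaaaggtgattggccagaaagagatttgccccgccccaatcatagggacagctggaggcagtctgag
Asns: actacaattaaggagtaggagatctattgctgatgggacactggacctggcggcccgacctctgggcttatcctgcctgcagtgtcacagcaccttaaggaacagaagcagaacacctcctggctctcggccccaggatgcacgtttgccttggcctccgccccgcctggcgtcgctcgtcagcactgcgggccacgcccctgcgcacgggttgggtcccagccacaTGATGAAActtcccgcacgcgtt
Pycr1: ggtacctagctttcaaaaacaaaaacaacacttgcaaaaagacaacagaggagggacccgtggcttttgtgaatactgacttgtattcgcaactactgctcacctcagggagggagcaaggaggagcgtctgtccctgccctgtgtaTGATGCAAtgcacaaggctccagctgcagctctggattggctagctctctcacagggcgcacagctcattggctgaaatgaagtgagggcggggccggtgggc
These windows lie at chr1:191183334-191183583 (minus strand), chr7:126625471-126625720 (minus), chr2:119350992-119351241 (plus), chr6:7693210-7693459 (minus) and chr11:120643749-120643998 (minus). The match begins 110 bases before the start in both Atf3 and Nupr1, 193 before it in Chac1, 23 before it in Asns and 103 before it in Pycr1. A match describes the letters of the window and is not evidence of a bound site.

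The libraries held 35970286 to 54174801 counts, and the 35 genes took 0.545% to 0.549% of them with Dex plus GW7647, 0.505% to 0.530% with Dex and 0.637% to 0.655% in untreated cells. All 7 erythroid progenitor markers were measured in every library. In the edgeR test 1 was higher and 4 lower with the combination against untreated, 2 higher and 3 lower with Dex against untreated, and 1, Gata2, lower with GW7647 over Dex. Among all tested genes 24.7% were higher and 25.1% lower with the combination against untreated, and 25.5% and 26.0% with Dex. With GW7647 over Dex these shares were 2.15% and 7.58%. Kit, the stem cell factor receptor, rose 2.99-fold with the combination and 2.95-fold with Dex against untreated, while Tfrc, the transferrin receptor, fell 1.55-fold with the combination and 1.58-fold with Dex. The transcription factor Tal1 fell by 0.54 with the combination and 0.59 with Dex on the log2 scale. Globin transcripts took 2.75% to 2.82% of counts with Dex plus GW7647, 2.96% to 3.12% with Dex and 6.48% to 7.15% in untreated cells, and the 8 markers of late erythroid cells were lower in all 8 cases in each drug group against untreated. Their summed level was 1304428 to 1319867 normalized counts with the combination, 1373801 to 1424646 with Dex and 3273113 to 3589114 in untreated cells. Summed over 6 markers each, megakaryocyte transcripts stood at 10302 to 10580 normalized counts with the combination, 14840.5 to 16574 with Dex and 33681 to 35686 untreated. Granulocyte transcripts stood at 3889 to 3958 with the combination, 6124 to 6481 with Dex and 13593 to 14871 untreated. Mast cell and basophil transcripts stood at 5613 to 5712 with the combination, 9615 to 9930.3 with Dex and 6033 to 6043 untreated, a sum dominated in the drug groups by Hdc, the histamine-forming enzyme, whose mean was 5029.6 ± 64.6 with the combination, 8683 ± 277 with Dex and 1749 ± 0.779 untreated (SD, n = 2). The other 4 tested markers of that list, Cpa3, Cma1, Mcpt8 and Ms4a2, were lower in both drug groups against untreated, and all 5 were lower with GW7647 over Dex. Of 6 macrophage markers, C1qa, C1qb and C1qc had 0 counts in all 4 drug-treated libraries, and the other 3 were detected. Csf1r had 167 and 144 counts with the combination, 293 and 248 with Dex and 213 and 225 untreated, and was lower with the combination against Dex and against untreated. Cd68 was higher and Adgre1 lower in both drug groups against untreated. The mitochondrial share was lowest in Dex replicate 1, at 1.73%, and lay between 2.46% and 2.88% in the other 5 libraries. The part of these shifts in the results below was not tested, and fewer cells of a kind cannot be told apart from less RNA per cell.

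With Dex against untreated, 5 of the 6 genes for stress transcription factors and Trib3 fell (Trib3, Ddit3, Atf5, Nupr1 and Atf4) and Atf3 rose. Of the 6 genes for eIF2α kinases, phosphatase subunits and the translation brake, Eif2ak1, Ppp1r15a and Eif4ebp1 fell, Eif2ak4 rose, and Eif2ak3 and Ppp1r15b were not called. Chac1, Vldlr and Stc2, the 3 other stress outputs tested, fell. The enzymes of serine and asparagine synthesis differed little. The remaining enzymes went both ways: Gpt2, Cth, Mthfd2, Pycr1, Shmt2 and Got1 fell, while Bcat2, Cbs, Aldh1l2, Shmt1 and Mthfd1 rose. Of the 33 genes tested, 18 were lower, 8 higher and 7 not called, where called means an adjusted p under 0.05 in the edgeR quasi-likelihood test over all 14125 tested genes. Among all tested genes, 51.6% were called, 26.0% lower and 25.5% higher. The median log2 difference was -0.24 over the 33 genes and 0.01 over all tested genes. Scaling by total counts lifts the median of all genes by 0.13 (log2) and gave 10 higher and 14 lower members, beside 5451 higher and 2584 lower genes in all, so small differences of either sign depend on the scaling.

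With Dex plus GW7647 against Dex, most of the called genes were higher: Gpt2, Cth, Chac1, Pycr1 and Nupr1 rose most among the called genes, and Atf4, Eif4ebp1, Phgdh, Psat1, Psph, Asns, Mthfd2 and Aldh18a1 rose by 0.17 to 0.27 on the log2 scale. The single fall was Bcat2. Of the 33 genes, 13 were higher, 1 lower and 19 not called with edgeR, while among all tested genes 9.73% were called, 2.15% higher and 7.58% lower. The median log2 difference was 0.17 over the 33 genes and 0.0013 over all tested genes. Chac1, Cth, Gpt2 and Pycr1 were the 4 members called higher without either library of Dex plus GW7647, when 0.444% (without replicate 1) and 0.369% (without replicate 2) of all genes tested were called higher. The other 9 lost their calls without each of these libraries.

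With Dex plus GW7647 against untreated, 12 of the 33 genes were lower, 8 higher and 13 not called by edgeR, against 25.1% lower and 24.7% higher, 49.7% in all, among tested genes. The median log2 difference was -0.08 over the 33 genes and 0.02 over all tested genes. Total count scaling lifts the median of all genes by 0.12 here and gave 13 higher and 11 lower members, beside 5480 and 2719 genes in all. The 3 comparisons share libraries, the Dex libraries entering both the first and the second, and their values are set side by side below. In the authors' deposited table of the combination and Dex, an adjusted p under 0.05 was given to 4.42% of genes, with 10 members higher and 1 lower with the combination. Their separate table of the combination and untreated gave it to 29.1% of genes, with 5 members higher and 12 lower.

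**Figure D1:**
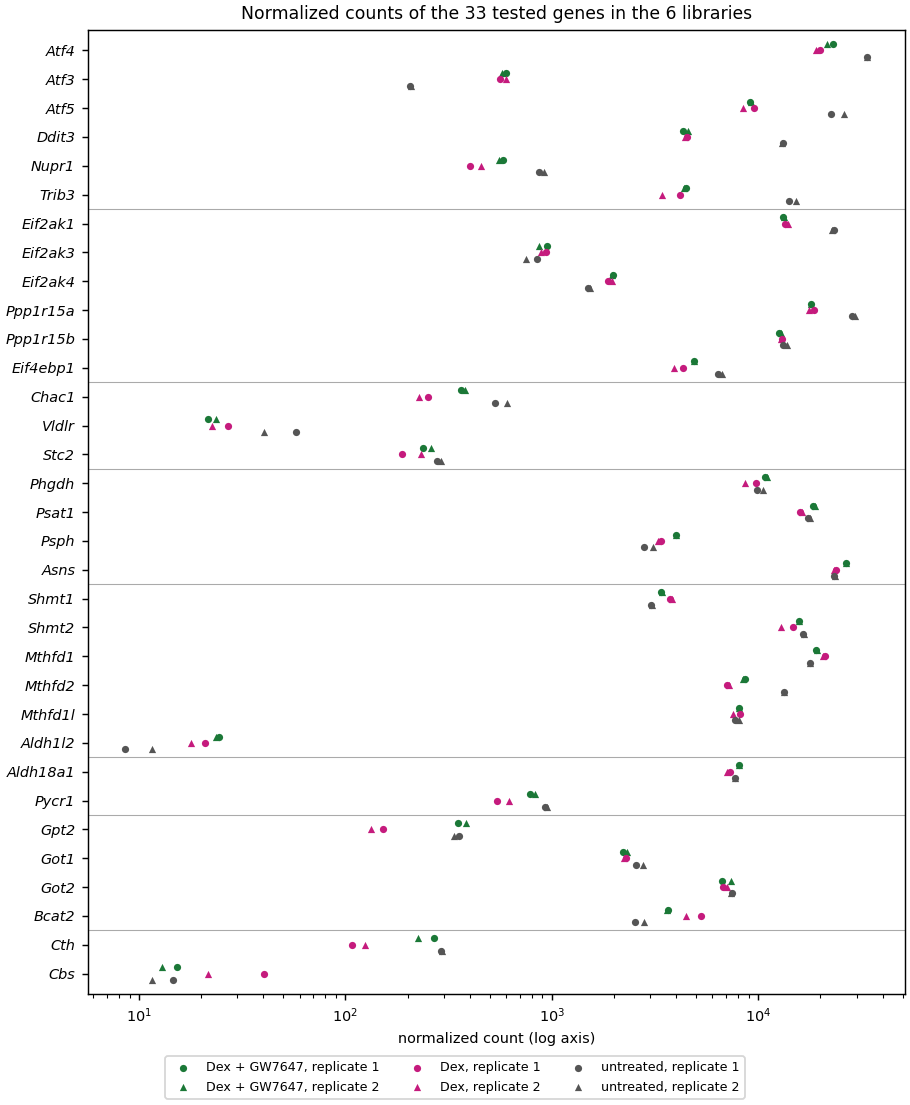
Normalized counts (log axis) of the 33 tested genes in each library, with Dex plus GW7647 above, Dex in the middle and untreated below within each gene and replicates 1 and 2 as circles and triangles. Grey lines separate the groups of genes by role. The untreated libraries of Trib3 and Ddit3 stand far to the right of all 4 drug-treated libraries, and the untreated libraries of Atf3 to their left.

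**Figure D2:**
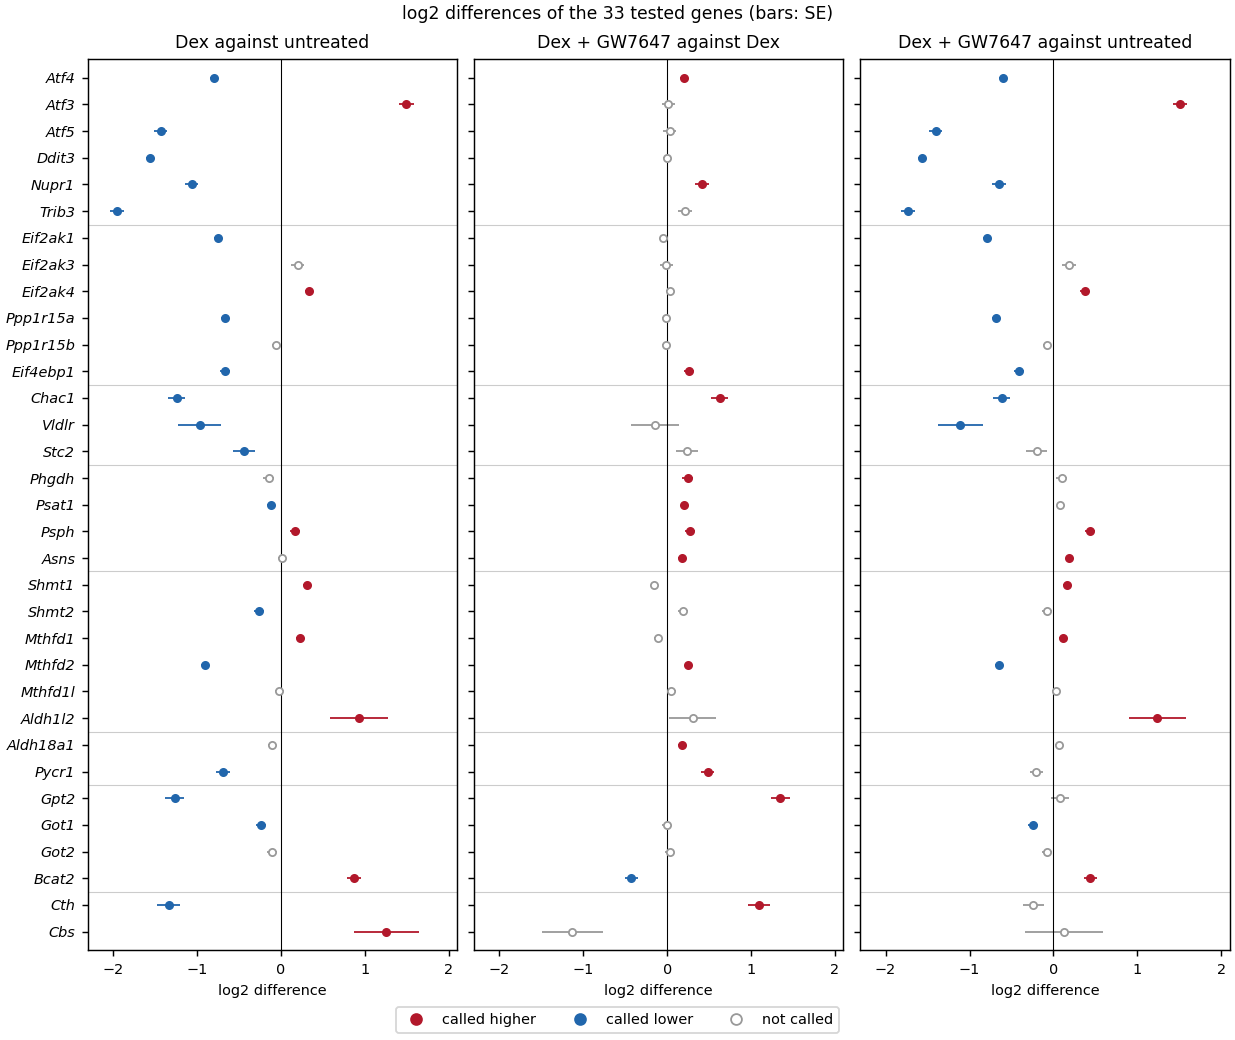
Fitted log2 difference (horizontal axis, bars are SE) of the 33 tested genes in the 3 comparisons, with filled red points called higher, filled blue points called lower and open grey points not called. Of the transcription factors and Trib3, all but Atf3 lie left of 0 in both comparisons with untreated, and the middle panel holds 13 red points and 1 blue point.

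Among the transcription factors, Atf4 itself had 23096 and 21589 normalized counts in the libraries with Dex plus GW7647, 19814 and 18985 with Dex and 33821 and 33783 in untreated cells. The untreated libraries lay highest, the Dex libraries lowest, and no 2 groups overlapped. With 2 libraries a group, such separation carries little weight here and below. The Dex and untreated libraries of Ppp1r15b and Got2 also lay apart, and neither gene was called. The share of all genes with separated libraries is not given. Atf4 fell 1.74-fold with Dex against untreated (log2 -0.80 ± 0.05 SE, adjusted p = 6.84e-07), and with the combination it fell 1.51-fold against untreated and rose by 0.20 against Dex (adjusted p = 0.0288). The rise was not called without Dex replicate 2 (adjusted p = 0.0537), without either library of the combination, or with the replicate number as a block (adjusted p = 0.0501).

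Ddit3, which encodes the stress factor CHOP, had 4319.8 and 4566 normalized counts with the combination, 4495 and 4423 with Dex and 13249 and 12990.0 in untreated cells. Both drug groups overlapped and stood well below the untreated libraries. It fell 2.94-fold with Dex (adjusted p = 8.08e-09) and 2.95-fold with the combination against untreated, and the log2 difference between the drug groups was -0.01 ± 0.05 (SE, adjusted p = 0.962). Trib3, a pseudokinase that restrains ATF4, CHOP and the kinase Akt, had 4484 and 4346 normalized counts with the combination, 4167 and 3421 with Dex and 14118 and 15189 untreated. Its log2 difference of -1.95 ± 0.08 (adjusted p = 5.82e-08) was the largest fall of the set with Dex. GW7647 on top of Dex gave Trib3 a log2 difference of 0.22 ± 0.08 that was not called (edgeR adjusted p = 0.139), as in 11 of 14 other settings. In edgeR it was called with genes of any count (adjusted p = 0.0026) and with a replicate block with untreated numbers swapped (adjusted p = 0.0106). Without Dex replicate 1, the Dex library with the higher Trib3 level, the log2 difference was 0.37.

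Atf5, a relative of ATF4 linked to mitochondrial stress, had 9131 and 9263 normalized counts with the combination, 9544 and 8461 with Dex and 22567 and 26019 untreated, which is 2.70-fold lower with Dex (adjusted p = 2.47e-07) and 2.64-fold lower with the combination. Nupr1, a small stress-induced nuclear protein, had 579 and 553 normalized counts with the combination, 400.5 and 452 with Dex and 866 and 912 untreated, and the 3 groups did not overlap. It fell by 1.06 on the log2 scale with Dex against untreated and rose 1.33-fold with GW7647 over Dex (adjusted p = 0.012), a call lost without Dex replicate 1 (adjusted p = 0.0512) and without either library of the combination. Atf3, a stress-induced factor of the same leucine zipper family, went the other way, with 599 and 574 normalized counts with the combination, 562 and 602 with Dex and 205 and 207 untreated. It rose 2.82-fold with Dex (adjusted p = 4.72e-07) and 2.85-fold with the combination, and the drug groups overlapped. Of these 6 genes, 5 were lower and 1 higher in each drug group against untreated, and 2 rose with GW7647 over Dex. Among all tested genes, 26.0% were lower and 25.5% higher with Dex, and 25.1% and 24.7% with the combination. With GW7647 over Dex, 2.15% of all tested genes were higher.

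Eif2ak1, the heme-regulated kinase, had 13205 and 13307 normalized counts with Dex plus GW7647, 13431 and 13922 with Dex and 23253 and 22747 in untreated cells. It fell 1.68-fold with Dex (log2 -0.75 ± 0.04 SE, adjusted p = 5.04e-07) and 1.74-fold with the combination. Per length it was the most abundant of the eIF2α kinases in every group, at 53.9 ± 0.293 RPKM (reads per kilobase of exon, scaled for depth) with the combination, 55.6 ± 1.41 with Dex and 93.5 ± 1.45 in untreated cells (SD, n = 2). On the same scale the kinases PERK, GCN2 and PKR (Eif2ak2, activated by double-stranded RNA) stood at 3.04, 4.69 and 9.06 in untreated cells. Eif2ak4 rose by 0.34 with Dex and 0.37 with the combination (log2, adjusted p = 0.000396 and 0.000228). Eif2ak3, with 948 and 862 normalized counts with the combination, 938 and 889 with Dex and 846 and 746 untreated, was not called with Dex (log2 0.20 ± 0.08 SE, adjusted p = 0.0608) or with the combination (adjusted p = 0.0801), and it passed in 5 and 3 of 14 other settings.

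Of the subunits that direct protein phosphatase 1 to eIF2α, the stress-induced Ppp1r15a (GADD34) had 18030.2 and 17919.9 normalized counts with the combination, 18615 and 17670.2 with Dex and 28385 and 29329 untreated. It fell 1.59-fold and 1.61-fold with Dex and with the combination (adjusted p = 1.57e-06 and 1.53e-06). The constitutive Ppp1r15b (CReP) had 12671 and 12924 normalized counts with the combination, 13021 and 12856 with Dex and 13189.9 and 13814 untreated and was not called in any comparison, with log2 differences of -0.06 ± 0.05 for Dex and -0.08 ± 0.05 for the combination (SE). Per length, Ppp1r15a stood at 226 ± 5.24 and Ppp1r15b at 55.6 ± 1.82 RPKM in untreated cells (SD, n = 2). Eif4ebp1, an ATF4 target that blocks cap-dependent translation, had 4906 and 4902 normalized counts with the combination, 4305 and 3892 with Dex and 6356 and 6688 untreated. It fell 1.59-fold with Dex against untreated and rose 1.20-fold with GW7647 over Dex (adjusted p = 0.0196).

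Chac1, an enzyme that degrades glutathione and a marker of ATF4 activity, had 364 and 378 normalized counts in the libraries with Dex plus GW7647, 252 and 227 with Dex and 532 and 605 in untreated cells. The 3 groups did not overlap, with Dex lowest. It fell 2.37-fold with Dex against untreated (adjusted p = 4.24e-06), rose 1.54-fold with GW7647 over Dex (log2 0.63 ± 0.10 SE, adjusted p = 0.00384) and with the combination stayed 1.53-fold below untreated (adjusted p = 0.000491). Stc2, a secreted glycoprotein, had 236 and 259 normalized counts with the combination, 187 and 233 with Dex and 279 and 289 untreated. Its fall with Dex (log2 -0.44 ± 0.13 SE, adjusted p = 0.0163) did not survive leaving out Dex replicate 1, leaving out untreated replicate 2 or scaling by total counts, which gave adjusted p of 0.0979, 0.0723 and 0.059. Vldlr, a lipoprotein receptor, had only 24 and 20 counts with the combination, 35 and 24 with Dex and 47 and 35 untreated. It was called lower in both drug groups, and each call held in 12 of 14 other settings. Both were lost without untreated replicate 1 (log2 -0.70 for Dex and -0.84 for the combination). The call with Dex was also lost with DESeq2 (adjusted p = 0.077), and that with the combination without its replicate 1 (log2 -1.04). Fgf21, a hormone made mainly by liver, had 0 counts in all 6 libraries, which allows up to 3 counts in each, counting error only.

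**Figure D3:**
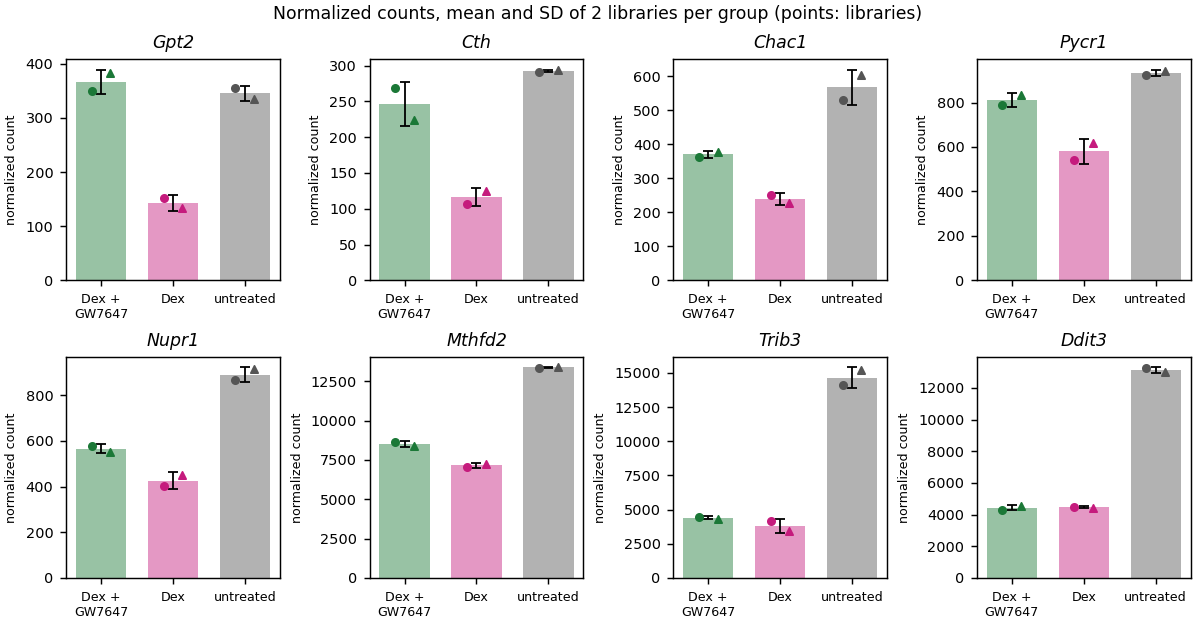
Normalized counts of 8 genes (vertical axes from 0), with Dex plus GW7647 at left, Dex in the middle and untreated at right. Bars are means with SD over 2 libraries, and circles and triangles are replicates 1 and 2. For Gpt2, Cth, Chac1, Pycr1, Nupr1 and Mthfd2 the Dex bar is the lowest of the 3, and for Ddit3 both drug groups overlap below the untreated bar.

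The enzymes of serine synthesis and asparagine synthetase moved little. Phgdh, which takes 3-phosphoglycerate into the serine pathway, had 10819 and 10998 normalized counts with the combination, 9788 and 8609 with Dex and 9837 and 10526 untreated. Psat1, the aminotransferase of the next step, had 18400.3 and 18886 normalized counts with the combination, 15967 and 16381 with Dex and 17359 and 17825 untreated, and Psph, the phosphatase that ends the pathway, had 3994 and 4016 normalized counts with the combination, 3381 and 3255 with Dex and 2809 and 3106 untreated. In Phgdh, Psat1, Psph and Asns the combination lay above Dex in every library. Asns, which makes asparagine from aspartate, had 26743 and 26480.0 normalized counts with the combination, 23856 and 23338 with Dex and 23158 and 23579.5 untreated, and its Dex and untreated libraries overlapped. Per length it had the highest mean of the set in both drug groups, at 224 ± 1.57 RPKM with the combination and 199 ± 3.09 with Dex (SD, n = 2).

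With GW7647 over Dex all 4 rose, by 0.25 (Phgdh), 0.20 (Psat1), 0.27 (Psph) and 0.17 (Asns) on the log2 scale, with adjusted p of 0.0394, 0.0172, 0.0133 and 0.0316 from edgeR. All 4 calls were lost without either library of the combination, with adjusted p from 0.103 (Psph) to 0.255 (Asns). Scaling by total counts or leaving out Dex replicate 2 also cost Phgdh its call, with adjusted p of 0.0539 and 0.0794. With the replicate block neither Phgdh nor Asns was called (adjusted p = 0.0814 and 0.0744). Against untreated, Psph rose 1.35-fold and Asns 1.14-fold with the combination (adjusted p = 0.000131 and 0.00473), and the call of Asns was lost without replicate 1 of the combination (adjusted p = 0.0573). With Dex alone, Psat1 fell by 0.12 on the log2 scale (adjusted p = 0.0434), a difference that turned to 0.0084 under total count scaling and kept its call in 5 of 14 other settings. Psph rose by 0.17 (adjusted p = 0.0321), a call kept in 7 of 14, while Phgdh and Asns were not called. Phgdh stayed uncalled in 11 of 14 other settings and Asns in 13. DESeq2 called Phgdh lower (log2 -0.15, adjusted p = 0.048), and total count scaling called Asns higher (log2 0.14, edgeR adjusted p = 0.0176).

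In the folate cycle, the cytosolic enzymes Shmt1, which exchanges serine and glycine, and Mthfd1, which interconverts folate intermediates, rose with Dex against untreated by 0.31 and 0.23 on the log2 scale (adjusted p = 0.000254 and 0.00141). Their mitochondrial counterparts Shmt2 and Mthfd2 fell by 0.26 and 0.90 (adjusted p = 0.00437 and 1.55e-07), and the fall of Shmt2 was lost under total count scaling (adjusted p = 0.0954). Mthfd2, an ATF4 target, had 8641 and 8398 normalized counts with the combination, 7039 and 7257 with Dex and 13368 and 13386 in untreated cells, with no overlap between groups. It rose 1.19-fold with GW7647 over Dex (adjusted p = 0.006), a call lost when replicate 1 or replicate 2 of the combination was left out (adjusted p = 0.107 and 0.0516), and stayed 1.57-fold below untreated (adjusted p = 1.58e-06).

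Shmt2 had 15817 and 15711 normalized counts with the combination, 14696 and 12960.5 with Dex and 16408 and 16755 untreated, and Mthfd1 had 19148 and 19344 normalized counts with the combination, 21102 and 20534 with Dex and 17754 and 17789 untreated. Neither was called between the drug groups (edgeR adjusted p = 0.0795 and 0.137), and Shmt2 stayed uncalled in 10 of 14 other settings. Shmt2 was called by DESeq2 (adjusted p = 0.0383). In edgeR it was called with genes of any count (adjusted p = 0.00688) and with a replicate block with untreated numbers swapped (adjusted p = 0.0135). Its log2 difference was 0.28 without Dex replicate 1. Shmt1 was not called between the drug groups either (edgeR adjusted p = 0.0609). It had 3392 and 3419 normalized counts with the combination, 3741 and 3836 with Dex and 3027 and 3067 untreated. Mthfd1l, the mitochondrial formate-producing enzyme, was not called in any comparison, with means of 8089.7 ± 24.5 normalized counts with the combination, 7823 ± 415 with Dex and 7924 ± 267 untreated (SD, n = 2). Aldh1l2, a mitochondrial formyl-folate dehydrogenase, had 27 and 20 counts with the combination, 27 and 19 with Dex and 7 and 10 untreated. It was called higher in both drug groups, but the call with Dex (adjusted p = 0.0446) held in 4 of 14 other settings, and 14.1% of its exon length is shared with D10Wsu102e on the opposite strand. Whether the counting used strand is not stated, so reads of the 2 genes cannot be told apart there. The same holds for 10.4% of the exon length of Psph, shared with Cct6a, and 8.59% of that of Eif2ak1, shared with Aimp2.

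Of the proline pathway, Pycr1, the reductase that completes proline in mitochondria, had 788 and 833 normalized counts with the combination, 541 and 619 with Dex and 922 and 944 untreated. The groups did not overlap, and the Dex libraries lay lowest. It fell 1.61-fold with Dex (adjusted p = 5.22e-05), rose by 0.48 ± 0.08 (log2, SE) with GW7647 over Dex (adjusted p = 0.0037), and was not called between the combination and untreated (log2 -0.20 ± 0.08 SE, adjusted p = 0.0515), where 5 of 14 other settings called it lower. Aldh18a1, which makes the proline precursor from glutamate, had 8066 and 8097 normalized counts with the combination, 7261 and 7027 with Dex and 7697 and 7713 untreated. It rose by 0.18 (log2) with GW7647 over Dex (adjusted p = 0.0322), and lost the call with the replicate block or when Dex replicate 2 was dropped (adjusted p = 0.074 and 0.0611), as it did without either library of the combination.

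Gpt2, the mitochondrial alanine aminotransferase, had the largest response to GW7647 of the set. It had 350.2 and 383 normalized counts in the libraries with Dex plus GW7647, 153 and 133 with Dex and 356 and 335 in untreated cells. The combination and untreated libraries overlapped and the Dex libraries lay far below both. It fell 2.41-fold with Dex against untreated (log2 -1.27 ± 0.11 SE, adjusted p = 9.48e-06) and rose 2.55-fold with GW7647 over Dex (log2 1.35 ± 0.11 SE, adjusted p = 6.02e-05). Between the combination and untreated the log2 difference was 0.08 ± 0.11 (SE, adjusted p = 0.553). In the authors' deposited table the ratio of Dex over the combination was 0.388 for Gpt2 with an adjusted p of 1.53e-15.

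Bcat2, the mitochondrial branched-chain aminotransferase, had 3640.2 and 3597 normalized counts with the combination, 5267 and 4473 with Dex and 2528 and 2799 untreated. It rose 1.83-fold with Dex against untreated (adjusted p = 9.37e-06) and fell 1.35-fold with GW7647 over Dex (adjusted p = 0.00649), a call just lost without replicate 2 of the combination (adjusted p = 0.0529). With the combination it stayed 1.36-fold above untreated. An antisense gene, 0610005C13Rik, shares 15.95% of its exon length. Bcat1, the cytosolic form, was near absent, with 5 and 1 counts with the combination, 8 and 6 with Dex and 10 and 9 untreated. Got1, the cytosolic aspartate aminotransferase, fell 1.18-fold with Dex and 1.18-fold with the combination (edgeR adjusted p = 0.00543 and 0.00499). Both calls were lost under total count scaling (edgeR adjusted p = 0.129 and 0.0825). The call with Dex was also lost without untreated replicate 2 (log2 -0.17), and that with the combination without its replicate 1 (log2 -0.21). The mitochondrial Got2 was not called in any comparison, with means of 7039 ± 465 normalized counts with the combination, 6894 ± 244 with Dex and 7412 ± 43.9 untreated (SD, n = 2).

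Cth, the lyase that makes cysteine from cystathionine, had 268 and 224 normalized counts with the combination, 107 and 125 with Dex and 291 and 294 untreated. The Dex libraries lay below all others. Cth fell 2.53-fold with Dex against untreated (log2 -1.34 ± 0.13 SE, adjusted p = 2.11e-05), rose 2.14-fold with GW7647 over Dex (log2 1.10 ± 0.13 SE, adjusted p = 0.000741), and differed by -0.24 ± 0.13 (log2, SE) between the combination and untreated (adjusted p = 0.142). Cbs, the preceding enzyme, had 17 and 11 counts with the combination, 52 and 23 with Dex and 12 and 10 untreated. Its call with Dex (log2 1.26 ± 0.39 SE, edgeR adjusted p = 0.0203) was lost with DESeq2 (adjusted p = 0.106). It was also lost without Dex replicate 1, whose counts were the highest (log2 0.72), and when untreated replicate 1 or 2 was left out (log2 1.43 and 1.09).

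**Figure D4:**
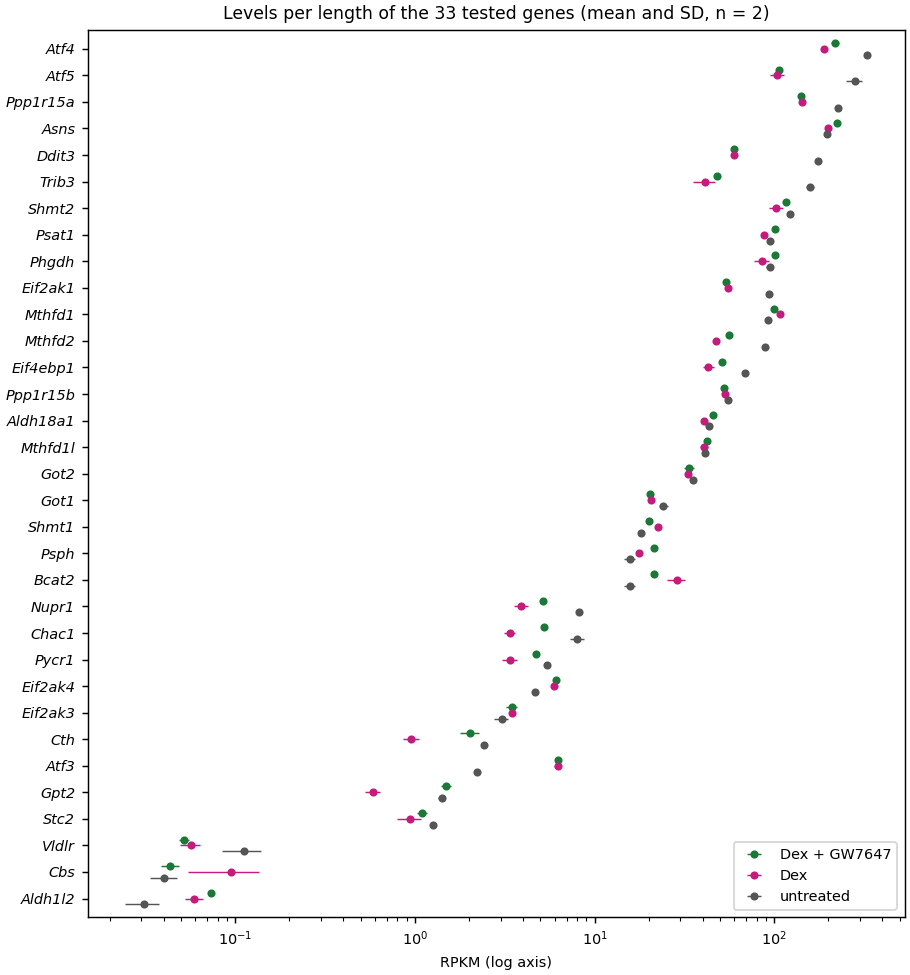
RPKM, computed from the counts (log axis) of the 33 tested genes, ordered by the untreated level, with Dex plus GW7647 in green, Dex in pink and untreated in grey. Points are means and bars SD over 2 libraries. Atf4 stands highest in untreated cells at 330.4 ± 0.267, and Aldh1l2 lowest.

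In the plot of levels per length, Atf4 stood at 218 ± 10.4 RPKM with the combination, 189.6 ± 5.73 with Dex and 330.4 ± 0.267 in untreated cells (SD, n = 2). Atf5 (281 ± 28.2), Ppp1r15a (226 ± 5.24), Asns (197 ± 2.51), Ddit3 (176 ± 2.46) and Trib3 (159 ± 8.22) followed in untreated cells. With Dex, Ddit3 stood at 59.99 and Trib3 at 41.1 ± 5.72, below Phgdh (85.3 ± 7.73) and Psat1 (87.6 ± 1.58), over which they lay in untreated cells (94.4 ± 4.52 and 95.3 ± 1.78). Gpt2, Cth and Chac1 were minor transcripts in every group, at 0.584 ± 0.0567, 0.958 ± 0.102 and 3.37 ± 0.253 with Dex.

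Other genes of the pathway were read from lists that hold none of the 35 genes. The first list held 35 genes linked to ATF4 in other cells, such as amino acid transporters and aminoacyl-tRNA synthetases. With Dex against untreated 25 of these were lower, 4 higher and 6 not called by edgeR, with a median log2 difference of -0.35. Among all tested genes 26.0% were lower and 25.5% higher, with a median of 0.01. Slc7a11, the cystine importer, fell with Dex, with 916 and 959 normalized counts with the combination, 519 and 615 with Dex and 3457 and 3208 untreated (log2 -2.56 ± 0.08 SE, adjusted p = 8.58e-09). Slc1a4, a transporter of neutral amino acids, fell by 1.08, and Sqstm1, an autophagy receptor that also answers to the oxidant-sensing factor NRF2, by 1.34 on the log2 scale. Of the 4 that rose, Ddit4, an inhibitor of mTORC1 and a glucocorticoid target, rose 3.35-fold, and Txnip, an inhibitor of thioredoxin, rose 2.34-fold. With GW7647 over Dex, 7 of the 35 rose and 3 fell, with a median of 0.09, beside 2.15% and 7.58% of all tested genes. The 7 were Slc7a11 (1.66-fold, adjusted p = 0.000524), Vegfa, the transporters Slc7a1, Slc7a5, Slc1a4 and Slc38a2, and Xpot, a tRNA exporter, and Txnip fell 1.53-fold. Against untreated the combination gave 5 higher and 22 lower, beside 24.7% and 25.1% of all tested genes.

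Another list held 19 genes for eIF2, its exchange factor eIF2B, phosphatase catalytic subunits and regulators of the kinases. Of these, 5 were higher and 3 lower with Dex against untreated, beside 25.5% and 26.0% of all tested genes. With the combination against untreated 5 were higher and 2 lower, beside 24.7% and 25.1%. With GW7647 over Dex 0 were called in either direction, beside 2.15% higher and 7.58% lower among all tested genes. At such shares a list of 19 can hold 0 calls. At an unadjusted p under 0.05 edgeR had 3 of the 19 higher and 0 lower with GW7647 over Dex. At that threshold DESeq2 had 2 higher and limma 3, each with 0 lower. After adjustment DESeq2 and limma called 0 as well. The largest fall of the list, in a comparison with untreated, was that of Ppp1cb, a catalytic subunit of protein phosphatase 1 (log2 -0.45 ± 0.05 SE, edgeR adjusted p = 4.17e-05). Oma1, the mitochondrial protease that signals to HRI, rose by 0.32 and its substrate Dele1 by 0.17 on the log2 scale with Dex. A list of 33 tested neighbouring enzymes covered serine, glycine, folate, proline, methionine and glutathione metabolism. With Dex against untreated 9 were higher and 7 lower, near the shares of 25.5% and 26.0% among all tested genes. With GW7647 over Dex 0 were higher and 2 lower, near the shares of 2.15% and 7.58%. At an unadjusted p under 0.05 edgeR had 7 higher and 7 lower, DESeq2 2 and 4, and limma 6 and 8. After adjustment DESeq2 and limma also called 0 higher and 2 lower. The share of all genes at the unadjusted threshold is not given, so the unadjusted counts of both lists are a description only. Gclc and Gclm, the subunits of the enzyme that begins glutathione synthesis, fell by 0.92 and 0.62 on the log2 scale with Dex. Glud1, glutamate dehydrogenase, rose by 0.57 with Dex and fell by 0.22 with GW7647 over Dex (adjusted p = 0.0166).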

How the data were processed

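RNA sequencing counts of 6 libraries were analysed, 2 per group. Per the submitters' processing notes, the authors used TopHat 1.4.1, HTSeq and DESeq with builds mm9 and NCBIM37. The authors' deposited tables give raw read counts per Ensembl gene, the authors' normalized signal (counts divided by 1 size factor per library, set within each table), the authors' ratio of group means and the authors' p-value with its adjusted form. The libraries with both drugs had identical counts in both tables. Symbols were joined by Ensembl identifier for 32897 genes (87.45%) from GENCODE M21 on GRCm38, a later build, used only for names, exon lengths and overlaps.

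Counts were fitted in 1 model over the 3 groups with edgeR 4.0.16 in R 4.3.3 (quasi-likelihood test, trimmed mean of M values scaling, filterByExpr with a minimum count of 10, Benjamini-Hochberg adjustment over all 14125 tested genes, threshold 0.05). Normalized counts are counts over the scaled library size, multiplied by the mean size. SE of a log2 difference was taken as its size over the root of the F statistic. The edgeR fit reported, edgeR with the size factors of DESeq2, edgeR with a replicate block, DESeq2 and limma were tested on simulated data. The other settings, among them the left-out libraries, were not. The simulation gave every gene the same spread, and far fewer genes changed in it than were called against untreated. Alternatives used DESeq2 1.42.0, limma 3.58.1, other scalings and filters, a replicate block and left-out libraries. The genes, lists and the rule for naming (every member, and up to 5 called genes with the smallest p from each pathway list) were chosen with earlier results of these data known. Xpot, Slc7a5 and Slc1a4 with GW7647 over Dex, and Dele1 with Dex, were named after their values were seen. One gene that the rule names is not reported here.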

Additional observations from a re-analysis of the deposited data

How the results depend on the processing

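With Dex against untreated, total count scaling gave 5451 genes higher, DESeq2 gave 5 members higher, and leaving out 1 library gave 5 to 7. With GW7647 over Dex, the genes called higher, 303 in the fit reported, numbered 578 with genes of any count, 154 with the replicate block and 54 to 618 with 1 library left out, and those called lower, 1071, ranged from 484 to 1111 with 1 library left out. Members called higher ranged from 4 to 14 with 1 library left out, and members called lower, 1 in the fit reported, numbered 2 under total count scaling and with genes of any count, and 0 to 2 with 1 library left out. With the combination against untreated, total count scaling gave 5480 genes and 13 members higher, DESeq2 and the authors' deposited adjusted p gave 5 members each, and left-out libraries 4 to 8. Where a left-out library leaves 1 in its group, that library is assumed to vary like those of the other groups. Psat1 with Dex turned to 0.0084 (log2) under total count scaling. Of the members called, calls held in all 14 other settings for 5 of 8 higher and 13 of 18 lower with Dex, 4 of 13 and 0 of 1 with GW7647 over Dex, and 4 of 8 and 10 of 12 with the combination against untreated. The cause of these changes was not tested.

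Replicate numbers are shared by the groups, but nothing in the labels pairs them. Deviations of same-numbered libraries from their group means correlated across genes at -0.21 (untreated and Dex), -0.05 (untreated and the combination) and 0.15 (Dex and the combination). The replicate block gave 9 members higher and 1 lower with GW7647 over Dex. With the untreated numbers swapped, an alternative chosen after seeing the data, 731 genes were higher, and 15 members were higher and 3 lower. Vldlr, Aldh1l2 and Cbs rest on 7 to 52 counts a library, which limits what their differences can show.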

Other observations

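Ndufa4l2, a mitochondrial protein known as a target of hypoxia-inducible factor, had the largest rise of the 35 genes linked to ATF4, with 93.9 and 87.4 normalized counts in the libraries with Dex plus GW7647, 138 and 138 with Dex and 3.67 and 1.16 in untreated cells. It fell by 0.60 on the log2 scale with GW7647 over Dex in the edgeR test (adjusted p = 0.0388). Its exons share 32 bases with Shmt2 on the opposite strand, and Shmt2 fell with Dex by 0.26.

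Gdf15, a secreted stress cytokine, had 134 and 104 normalized counts with the combination, 157 and 139 with Dex and 337 and 385 in untreated cells. It fell by 1.29 on the log2 scale with Dex against untreated and by 1.59 with the combination in the edgeR test (adjusted p = 3.88e-05 and 1.36e-05). Cebpb, one of the C/EBP partners of ATF4, had 1418 and 1519 normalized counts with the combination, 1396 and 1044 with Dex and 2902 and 3258 untreated, and fell by 1.33 with Dex and 1.07 with the combination (adjusted p = 6.54e-06 and 3.35e-05). Its relative Cebpg fell by 0.47 and 0.38. Gdf15, Cebpb and Cebpg were not called with GW7647 over Dex (adjusted p = 0.278, 0.206 and 0.33), and they and Ndufa4l2 were named after their values were seen.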
